A study of Mus musculus with 2 samples.

Results

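Cells with both Eomes and Lhx1 transcripts and with little or no Sox17 transcript were described in single-cell RNA sequencing of mouse somitic gastruloids. A cell was a member when it had at least 1 unique molecular identifier (UMI, 1 counted transcript molecule) of Eomes, at least 1 of Lhx1, at most 1 of Sox17, and at least 1 of any of Gsc, Mixl1, Cer1 and Myl7. Of the 13826 cells with at least 1000 genes detected and at most 10% mitochondrial UMIs, 249 were members. These were 125 of 6646 untreated cells and 124 of 7180 dTAG-13 cells. The rule used measured counts of 7 genes, so the levels of those genes are a description of the choice and not a finding.

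Mesendoderm is the population of the primitive streak from which definitive endoderm and the most anterior mesoderm arise. Nodal signalling, passed on by the activin receptors, Smad2, Smad3 and Foxh1, induces the T-box factor Eomes, and Eomes and the LIM-homeodomain factor Lhx1 are required in the mouse embryo for definitive endoderm and for anterior mesendoderm. Gsc marks the organizer and prechordal plate, Mixl1 the primitive streak, Cer1 encodes a secreted antagonist of Nodal, BMP and WNT ligands, and Myl7 encodes an atrial myosin light chain that appears early in heart progenitors. Sox17 is a definitive endoderm factor, and the limit on it keeps out cells with a clear endoderm count.

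Gastruloids are grown from small balls of pluripotent cells and develop tissues of the early embryo in culture. Both groups derive from E14 mouse embryonic stem cells with a triple reporter, in which the endogenous Zeb2 protein carries an HA-FKBP12F36V degron tag, so the controls carry the tag too. Zeb2 is a zinc-finger repressor involved in loss of epithelial character, and dTAG-13 is a small molecule that brings FKBP12F36V-tagged proteins to degradation. Aggregates of 300 sorted cells received 3 µM CHIR99021 (an activator of WNT signalling) from 48 h and 10% Matrigel at 96 h. The dTAG-13 group had 100 nM dTAG-13 at 72 and 96 h, while the control is called untreated in the sample labels and the series text names DMSO. About 32 gastruloids were pooled into each of the 2 libraries, and 7-AAD was used to sort live cells. The sources used here do not state when the gastruloids were harvested. Each group is a single library without replicates, so no difference between the groups was tested, and every interval given is a 95% interval for counting error only.

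The members had a median of 24516 (untreated) and 25738.5 (dTAG-13) UMIs per cell, against 20453 and 20655.5 in the other cells. Of the barcodes that passed the filter, 11 occurred in both libraries, and 0 of these were members. By Scrublet's automatic threshold only 6 barcodes of the untreated and 2 of the dTAG-13 library were doublets, too few to be credible. When the highest scores were marked at 0.8% per 1000 barcodes, 9 untreated and 10 dTAG-13 members were marked, which was 7.20% and 8.06% of members against 6.23% and 6.83% of other cells. The Zeb2 transcript was at 46.1 and 54.3 CPM (UMIs of a gene per 1000000 UMIs summed over the cells of a group) in untreated and dTAG-13 members, and at 67.8 and 94.6 CPM in other cells. Because the degron removes protein and not mRNA, these values do not check the labels.

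Members made up 1.88% of untreated cells (1.57 to 2.24, exact binomial interval) and 1.73% of dTAG-13 cells (1.44 to 2.06). The intervals overlapped widely. Eomes was found in 266 untreated and 349 dTAG-13 cells, Lhx1 in 916 and 1102, and both in 189 and 245. Of those with both, 56 untreated and 112 dTAG-13 cells were left out for 2 or more Sox17 UMIs, and 8 and 9 lacked all of Gsc, Mixl1, Cer1 and Myl7. Just inside the limits, 6 members had a single UMI of both Eomes and Lhx1 and 40 had 1 Sox17 UMI, while 208 had 2 or more of both Eomes and Lhx1. Just outside them, 37 cells had 2 Sox17 UMIs, 353 lacked Eomes alone and 61 lacked Lhx1 alone.

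Lhx1 had the highest counts of the chosen genes, with a median of 23 UMIs per member in both libraries and up to 143. Eomes had a median of 5 UMIs, and up to 27. Gsc was detected in 194 of the 249 members, Myl7 in 168, Cer1 in 154 and Mixl1 in 55. Only 1 of these 4 genes was found in 54 members, while 83 had 2, 97 had 3 and 15 had all 4. The requirement was met by Gsc alone in 25 members, by Cer1 alone in 15, by Myl7 alone in 11 and by Mixl1 alone in 3. Per library, the summed level of Eomes was 268 CPM in untreated and 172 CPM in dTAG-13 members. That of Lhx1 was 1190.3 and 817 CPM. However, 11 of the dTAG-13 members held 28.3% of that library's member UMIs, with Eomes at 33.7 and Lhx1 at 151 CPM. The sums of the 2 libraries are therefore not read as a change. Eomes lies on chromosome 9 (118478212 to 118486132, plus strand) and Lhx1 on chromosome 11 (84518284 to 84525535, minus strand) of GRCm38, by GENCODE M21.

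The members were not 1 uniform population. All cells were clustered on genes other than the 7 of the rule, which gave 21 clusters. A single cluster of 206 cells held 167 of the 249 members, and 81.1% of its cells were members; it is called the largest group here. The same number of members, 167, fell in 1 cluster at Leiden resolutions 0.5 and 2.0. A second cluster of 230 cells held 39 members, the second group. The cluster led by the naive pluripotency genes Dppa5a and Fabp3 held 11, all from the dTAG-13 library, and the remaining 32 were spread over other clusters. The largest group had 96 untreated and 71 dTAG-13 members, or 1.44% (1.17 to 1.76) and 0.989% (0.773 to 1.25) of each library's cells, and the second had 13 and 26, or 0.196% (0.104 to 0.334) and 0.362% (0.237 to 0.530). The intervals overlapped in both cases, and no difference in size was read from them, since genes that define a cluster can themselves differ between the libraries.

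**Figure D1:**
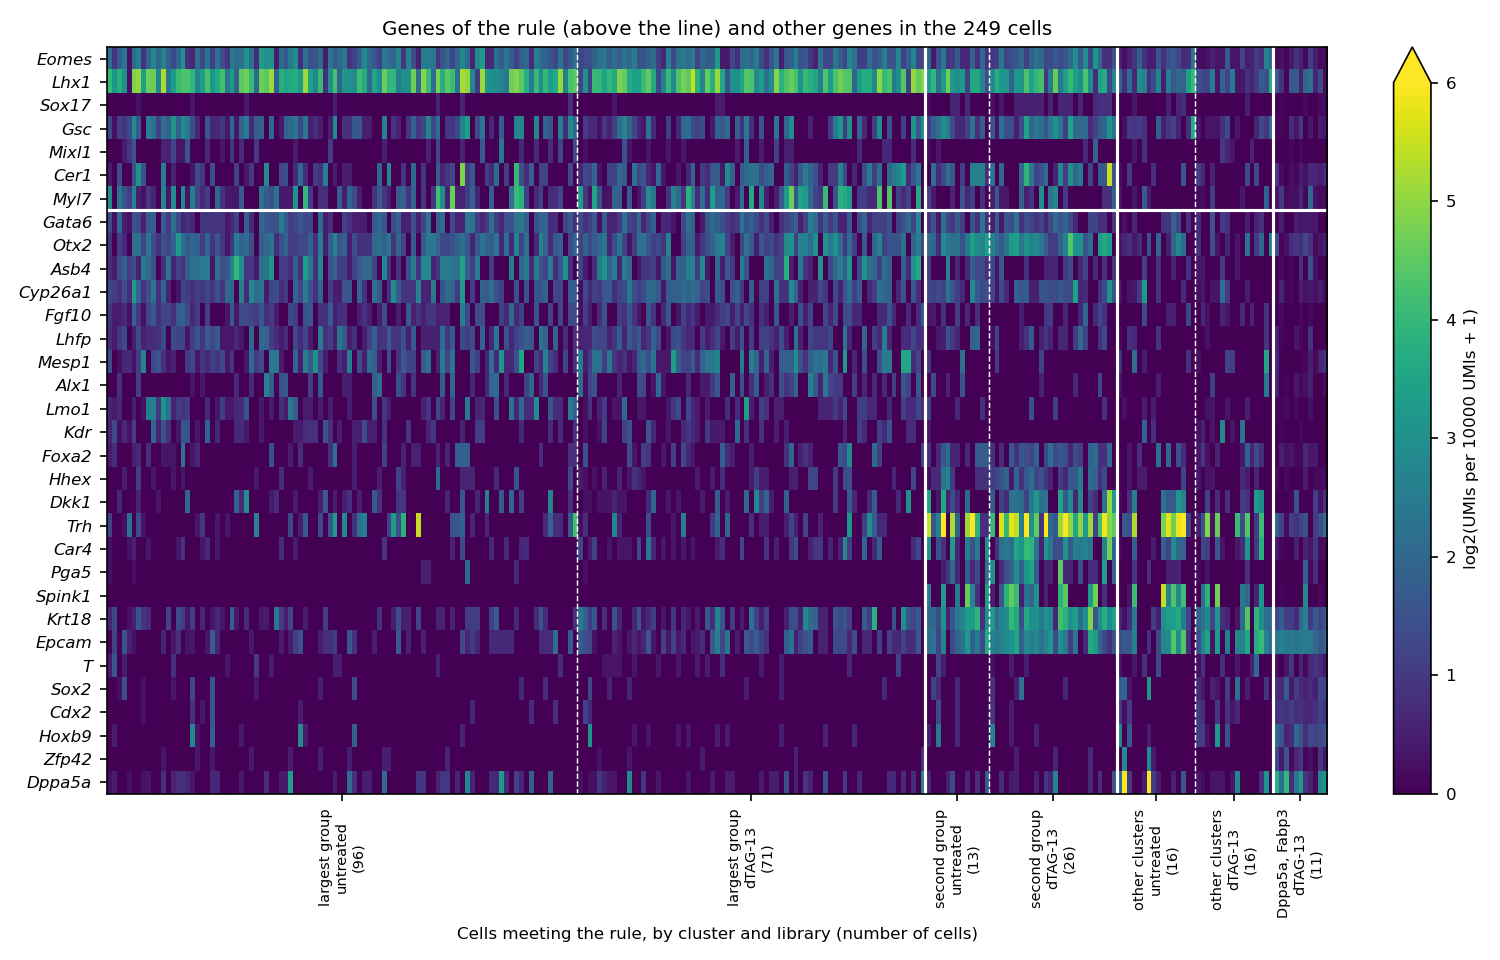
Each column is 1 of the 249 members, ordered by cluster, then library, then UMI count (highest first), and each row is a gene; colour is log2 of UMIs per 10000 UMIs plus 1 and stops at 6. The 7 genes of the rule stand above the white line; Mesp1 and Alx1 are seen mainly in the largest group, Trh, Pga5, Spink1, Krt18 and Epcam mainly in the second, and Dppa5a with Hoxb9 and Sox2 in the 11 dTAG-13 members at the right.

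The genes that led the largest group's cluster were Asb4, Gata6, Lhfp, Fgf10, Cyp26a1, Capn6, Col23a1, Alx1, Mesp1 and Lmo1. Since clustering used these genes, their levels here are a description. Mesp1, a bHLH factor of the earliest heart and head mesoderm, was at 133 and 223 CPM in the largest group (untreated, then dTAG-13, as throughout) and at 42.5 and 12.4 CPM in the second. Alx1, a homeobox factor of head mesenchyme, was at 44.9 and 82.6 CPM against 29.4 and 7.07 CPM. Other genes of mesoderm stood on the same side: Kdr, a VEGF receptor of vascular and heart progenitors, was at 46.4 and 36.4 CPM against 6.54 CPM and 0, and Pdgfra, a receptor of mesenchymal cells, at 33.8 and 35.4 CPM against 6.54 and 5.30 CPM. The second group held the epithelial and endoderm genes. Trh, which encodes the thyrotropin-releasing hormone precursor, reached 2636 and 2677 CPM there against 130.0 and 61.0 CPM in the largest group. Hhex, a homeobox factor of anterior endoderm, was at 105 and 157 CPM against 13.8 and 22.6 CPM, and Epcam, an epithelial adhesion molecule, at 359.7 and 497 CPM against 36.8 and 91.3 CPM. Spink1, a protease inhibitor gene of gut endoderm, had 0 UMIs in the 167 cells of the largest group, which allows a share of up to 1.80% of cells with a UMI, and was at 386 and 541 CPM in the second.

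Gata6, a GATA factor of cardiac mesoderm and endoderm and the single marker of the label that the rule did not use, was shared by both groups. It was found in 88.0% of the largest group, 89.7% of the second and 7.59% of other cells, with medians of 25303, 18744 and 20541 UMIs per cell. In cells of the cluster led by Calcoco2, Mylpf and Zfp42, a naive pluripotency gene, where Gata6 should be lacking, 4.23% had a UMI at a median of 26437 UMIs. With every cell thinned to 10000 UMIs the shares were 66.5%, 74.4%, 4.58% and 2.38%. Mesp1 was found in 77.2% of the largest group and 10.3% of the second, against 1.90% of the naive cells, and in 56.3%, 7.69% and 0.596% after thinning. Foxa2, a forkhead factor of endoderm and notochord, had the opposite order, with 32.3% and 79.5% against 1.46%, and 21.6%, 66.7% and 0.596% after thinning. Within the largest group, 129 of 167 cells had Mesp1, 54 had Foxa2 and 34 had both. Mesp1 was not particular to the members. It was also a leading gene, with Aldh1a2, Foxc2 and Mesp2, of a cluster of 512 cells that held 0 members. Trh was found in 35.9% of the largest group but also in 64.8% of the naive cells, so no difference is read from it, and whether the naive cells express Trh was not tested.

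The groups also differed in how they met the rule. In the largest group Myl7 was found in 127 of 167 members, Gsc in 125, Cer1 in 106 and Mixl1 in 43, and 10 had a Sox17 UMI. In the second group Gsc was found in 38 of 39, Cer1 in 29, Myl7 in 21 and Mixl1 in 4, and 21 had a Sox17 UMI. Of the 191 cells of the second cluster that were not members, 174 had 2 or more Sox17 UMIs and the other 17 had no Eomes UMI. Of the 39 cells of the largest cluster that were not members, 6 had 2 or more Sox17 UMIs and 27 had no Eomes UMI. Those 39 cells, 19 untreated and 20 dTAG-13, had Asb4 at 155 CPM and Mesp1 at 125 CPM. In untreated and dTAG-13 members of the cluster Asb4 was at 249 and 235 CPM and Mesp1 at 133 and 223 CPM.

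Against all other cells, 139 of 7739 genes were at least 2-fold higher in members in both libraries, which is 1.8% of the genes tested, and 95 were at least 2-fold lower in both, which is 1.23%. A gene entered when its mean was at least 10 CPM, and ratios carry 1 CPM added to both sides. The counts leave out the 7 genes of the rule. The dTAG-13 sums include the 11 members of the cluster led by Dppa5a and Fabp3, which held 28.3% of those UMIs. Differences between the 2 libraries in the values below are therefore not read as changes. Asb4, a SOCS-box protein gene on chromosome 6 (5383386 to 5433022, plus strand), had the largest ratio outside the rule, at 205 and 123 CPM in members against 3.49 and 4.39 CPM in other cells. On the log2 scale that was 5.52 and 4.53. Gata6 stood at 123 and 95.9 CPM against 5.52 and 8.91 CPM, with log2 ratios of 4.25 and 3.29. Transcription factors with the same pattern were Alx1 (log2 ratios 3.82 and 4.27), Otx2, a factor of anterior epiblast and head tissue (4.32 and 2.93), Mesp1 (2.96 and 2.91), the forkhead gene Foxq1 (4.10 and 2.87) and the LIM-only gene Lmo1 (3.94 and 2.80). Signalling genes among the highest were the ligands Fgf10 (4.49 and 3.21) and Fgf5 (4.33 and 3.00), the semaphorin Sema6d (3.19 and 3.16) and Cyp26a1, which encodes a retinoic acid-degrading enzyme (3.48 and 3.23). The rest of the 15 highest were Capn6 (4.21 and 4.04), Lhfp (3.83 and 3.66), the collagen gene Col23a1 (3.35 and 2.93) and Klhl6 (4.07 and 3.21).

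**Figure D2:**
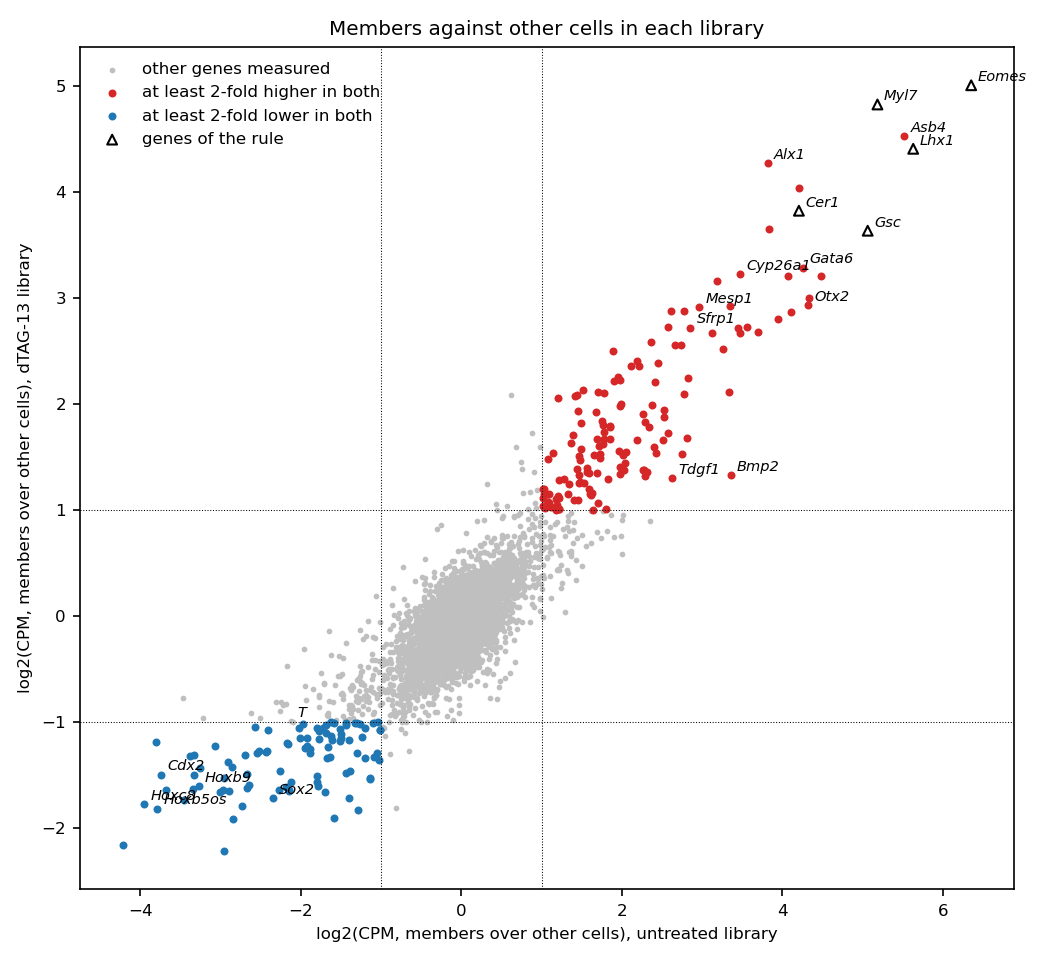
Each point is a gene with a mean of at least 10 CPM; the axes give log2 of CPM in members over CPM in other cells, with 1 CPM added to both, in the untreated (x) and dTAG-13 (y) library, and dotted lines mark 2-fold. The 139 genes higher and 95 lower in both libraries include Asb4 at the top right and the Hox and Cdx genes at the lower left; triangles are genes of the rule, which are there by choice.

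Proximal promoters are shown for 3 genes, Mesp1 because it set the largest group apart from the second, Asb4 because it had the largest ratio, and Cer1 as 1 of the 7 genes of the rule. The motifs to mark were set for each gene, and only a promoter entry that held them was shown. The matches in these 3 sequences are therefore there by choice. They are RefSeq sequences on GRCm38.p6, 250 bases before to 50 after the start site, read in the direction of the gene. Capitals mark matches on either strand to AGGTGTGA (a site of the T-box class, to which Eomes belongs), TAATTA (a homeodomain site, the class of Lhx1) or TGTNNATT (a Foxh1-type site); the last of these overlaps TAATTA at the first run of capitals in Asb4.
Mesp1, chr7:79793541-79793840, minus strand: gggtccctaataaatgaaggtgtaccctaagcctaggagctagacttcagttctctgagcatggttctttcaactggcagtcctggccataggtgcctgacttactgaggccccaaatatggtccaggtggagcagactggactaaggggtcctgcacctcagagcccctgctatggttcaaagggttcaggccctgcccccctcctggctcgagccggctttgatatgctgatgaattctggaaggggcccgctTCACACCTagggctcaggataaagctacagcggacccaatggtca
Asb4, chr6:5383136-5383435, plus strand: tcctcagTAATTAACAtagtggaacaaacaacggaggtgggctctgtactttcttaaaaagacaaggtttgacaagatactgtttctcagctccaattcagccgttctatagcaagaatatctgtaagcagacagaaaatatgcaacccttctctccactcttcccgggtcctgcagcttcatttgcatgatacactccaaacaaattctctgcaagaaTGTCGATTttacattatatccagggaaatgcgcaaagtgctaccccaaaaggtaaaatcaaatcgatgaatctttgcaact
Cer1, chr4:82885102-82885401, minus strand: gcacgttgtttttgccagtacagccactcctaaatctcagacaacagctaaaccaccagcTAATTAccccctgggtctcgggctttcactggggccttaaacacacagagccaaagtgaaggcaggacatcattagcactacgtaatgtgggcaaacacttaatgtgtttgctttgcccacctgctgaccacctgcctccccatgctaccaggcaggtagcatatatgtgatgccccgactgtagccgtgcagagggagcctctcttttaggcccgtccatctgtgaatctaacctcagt
The T-box match of Mesp1 begins 5 bases after the start site, on the opposite strand, and the TAATTA of Cer1 begins 190 bases before it. In Asb4 the TAATTA begins 243 bases before the start site and the TGTNNATT matches 242 and 31 bases before it. Of 32851 promoters of this length, 1.28% hold AGGTGTGA, 5.29% TAATTA, 12.2% TGTNNATT and 7.06% GGATTA, a site of the Otx and Gsc class that was searched as well. Of the 15 named genes 12 had an entry, and 1 of them held AGGTGTGA, 3 TAATTA, 4 TGTNNATT and 1 GGATTA. These counts are per gene, while the shares above are per promoter entry. The 12 genes had 18 entries, of which 1 held AGGTGTGA, 5 TAATTA, 6 TGTNNATT and 1 GGATTA. These are matches of letters in a short window and say nothing of binding.

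Among the mesendoderm and primitive streak genes outside the rule, 6 of 8 measured were higher in both libraries and 0 lower, beside 1.8% and 1.23% of all genes. A gene below 10 CPM in other cells can enter only through the members and so can only come out higher, and 2 of the 6 were such genes (Fgf5 and Wnt3). The 6 were Otx2, Fgf5, Mesp1, Foxa2 (log2 ratios 2.26 and 1.38), Tdgf1, which encodes the Nodal coreceptor Cripto (2.63 and 1.30), and Wnt3, the ligand that starts the streak (2.04 and 1.44). T, the brachyury gene of the streak and notochord, was low: 12.2 and 19 CPM in members against 56.5 and 38.7 CPM in other cells. The list of anterior mesendoderm and prechordal plate had 5 of 6 measured genes higher, 2 of them below 10 CPM in other cells. They included Dkk1, a WNT inhibitor (2.37 and 1.99), Hhex (1.90 and 2.22) and Fzd5 (1.42 and 2.08). Dkk1 was at 366 and 352 CPM in the second group and at 42.2 and 49.2 CPM in the largest. Definitive endoderm genes were higher in 5 of 10, including Trh and Spink1, and 2 of the 5 were below 10 CPM in other cells. Of the epiblast list, 3 of 11 were higher (Fgf5, Otx2 and Tdgf1) and 4 lower (Pou5f1, Nanog, Sox2 and L1td1). The median log2 ratios of the list were -0.95 and -0.84. Of the 3 higher, 1 was below 10 CPM in other cells, and 1 of the 4 lower was below it in members. Of the label's markers, Gata6 was the only one the rule did not use and it was higher, while Mixl1 was found in 55 of the 249 members. Otx2, Fgf5 and Tdgf1 are on the epiblast list too, and Otx2 and Fgf5 also led the second cluster, which was mostly cells with 2 or more Sox17 UMIs.

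Markers of other cell types were checked in the members. Of the endothelium list, the 3 measured genes, Kdr, Flt1 and Etv2, were higher in both libraries, 2 of them below 10 CPM in other cells, while Tie1, Sox18, Esam and Emcn had 0 UMIs in untreated members. The heart list had 2 measured genes, Mesp1 and Gata6, both higher, with Gata6 below 10 CPM in other cells. Among the rest, Tnnt2 was at 0.595 and 0.696 CPM and Nkx2-5 at 0 and 0.464 CPM. Of the visceral endoderm list, Amot was higher (3.26 and 2.52), but Afp was at 0 in both libraries and Ttr at 0 and 0.232 CPM. Of the presomitic mesoderm list, 1 of 5 measured genes was higher, the Notch ligand gene Dll3, and 2 were lower, Hes7 and Rspo3. Naive pluripotency genes were lower in 4 of 5 measured, and intermediate mesoderm, for which Lhx1 is also a marker, had no measured gene beyond Lhx1.

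The Hox and Cdx genes, which give trunk and tail cells their axial position, were all on the low side. All 16 of the 22 listed genes that were measured were at least 2-fold lower in both libraries, but 8 of the 16 were below 10 CPM in members and could enter only through the other cells. Their median log2 ratios were -3.14 and -1.55, where all genes had -0.01 and -0.02. Hoxb9 was at 38.3 and 80.3 CPM in members against 379.8 and 246 CPM in other cells, and Cdx2 at 10.1 and 33.2 CPM against 148 and 95.3 CPM. The genes with the lowest ratios were Hoxa3 (log2 -2.96 and -2.21), Cdx4 (-4.22 and -2.16), Cdx1 (-2.85 and -1.92), Hoxb5os (-3.79 and -1.81), Hoxc4 (-2.73 and -1.79), Hoxc8 (-3.95 and -1.77), Hoxa9 (-3.45 and -1.74) and Hoxc9 (-3.01 and -1.65). The neural and pluripotency factor Sox2 (-2.35 and -1.72) was also among the 10 lowest. The sources used here do not state whether reads were counted by strand, so antisense genes such as Hoxb5os and their partners cannot be told apart. The median ratio was nearer to 0 in the dTAG-13 library. The summed level of the list in other cells was 1682 CPM in the untreated and 1020.4 CPM in the dTAG-13 library. In members it was 184 and 345 CPM, and in the largest group alone 127 and 81.1 CPM. In the largest group Hoxb9 was at 22.6 and 24.1 CPM.

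Of the Nodal pathway, 2 of 12 measured genes were higher in members and 0 lower, where 1.8% and 1.23% of all genes were. Tdgf1 was among the 2 higher, and 1 of the 2 was below 10 CPM in other cells. Nodal itself was at 8.62 and 4.41 CPM in members against 2.74 and 2.86 CPM in other cells, too low to enter. Smad2, a transducer of Nodal signals, was at 39.2 and 36.4 CPM against 37.2 and 37.2 CPM. Of the WNT list, 3 of 13 were higher and 3 lower, beside the same shares of all genes. The secreted inhibitors Dkk1 and Sfrp1 (2.85 and 2.72) and the ligand Wnt3 were higher. Wnt8a (-2.19 and -1.61), Sp8 (-2.43 and -1.28) and Rspo3 (-1.62 and -1.0) were lower. Of the 3 higher, 1 was below 10 CPM in other cells. Of the 3 lower, 2 were below 10 CPM in members and could enter only through the other cells. Of the BMP list, the ligand Bmp2 was higher (3.35 and 1.33), 1 of 8, and was below 10 CPM in other cells. Of 8 measured genes of the retinoic acid list, the degrading enzyme gene Cyp26a1 and the retinol transporter gene Stra6 were higher. The receptor gene Rarg and the binding protein gene Crabp2 were lower. Of the 2 higher, 1 was below 10 CPM in other cells. None of 16 S phase and 16 G2 and M phase genes was higher or lower in both libraries.

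Members were also set beside 4 groups of other cells defined by the same kind of counts. Against the 267 cells with 2 or more Sox17 UMIs and Foxa2, 51 of 7751 genes were higher in both libraries (0.658%) and 65 lower (0.839%). Members had more Mesp1 (log2 ratios 5.44 and 4.28), Alx1 (4.44 and 4.59) and Kdr (3.94 and 3.01), and less Foxa1, an endoderm forkhead factor (-2.70 and -2.03), Trh (-2.44 and -1.54) and Spink1 (-2.40 and -1.75). Gata6, Otx2 and Cyp26a1 were shared with these cells, at 97.8, 250.2 and 76.2 CPM over both libraries. Against 160 cells with Noto or Shh, T and Foxa2, 112 of 7833 genes were higher (1.43%) and 170 lower (2.17%), with more Asb4 (6.84 and 4.37) in members and less Nog, a BMP antagonist of the notochord (-5.70 and -4.63). Against 174 cells with Eomes but no Lhx1, 238 of 7701 genes were higher (3.09%) and 282 lower (3.66%), and members had less of the pluripotency genes Zfp42 (-4.32 and -4.13) and Pou5f1 (-4.25 and -3.0). Against 1584 cells with Lhx1 but no Eomes, 91 of 7718 genes were higher (1.18%) and 66 lower (0.855%); members had less of the somite factor Meox1 (-2.84 and -2.56) and of Osr1, a factor of intermediate mesoderm (-3.14 and -2.20).

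**Figure D3:**
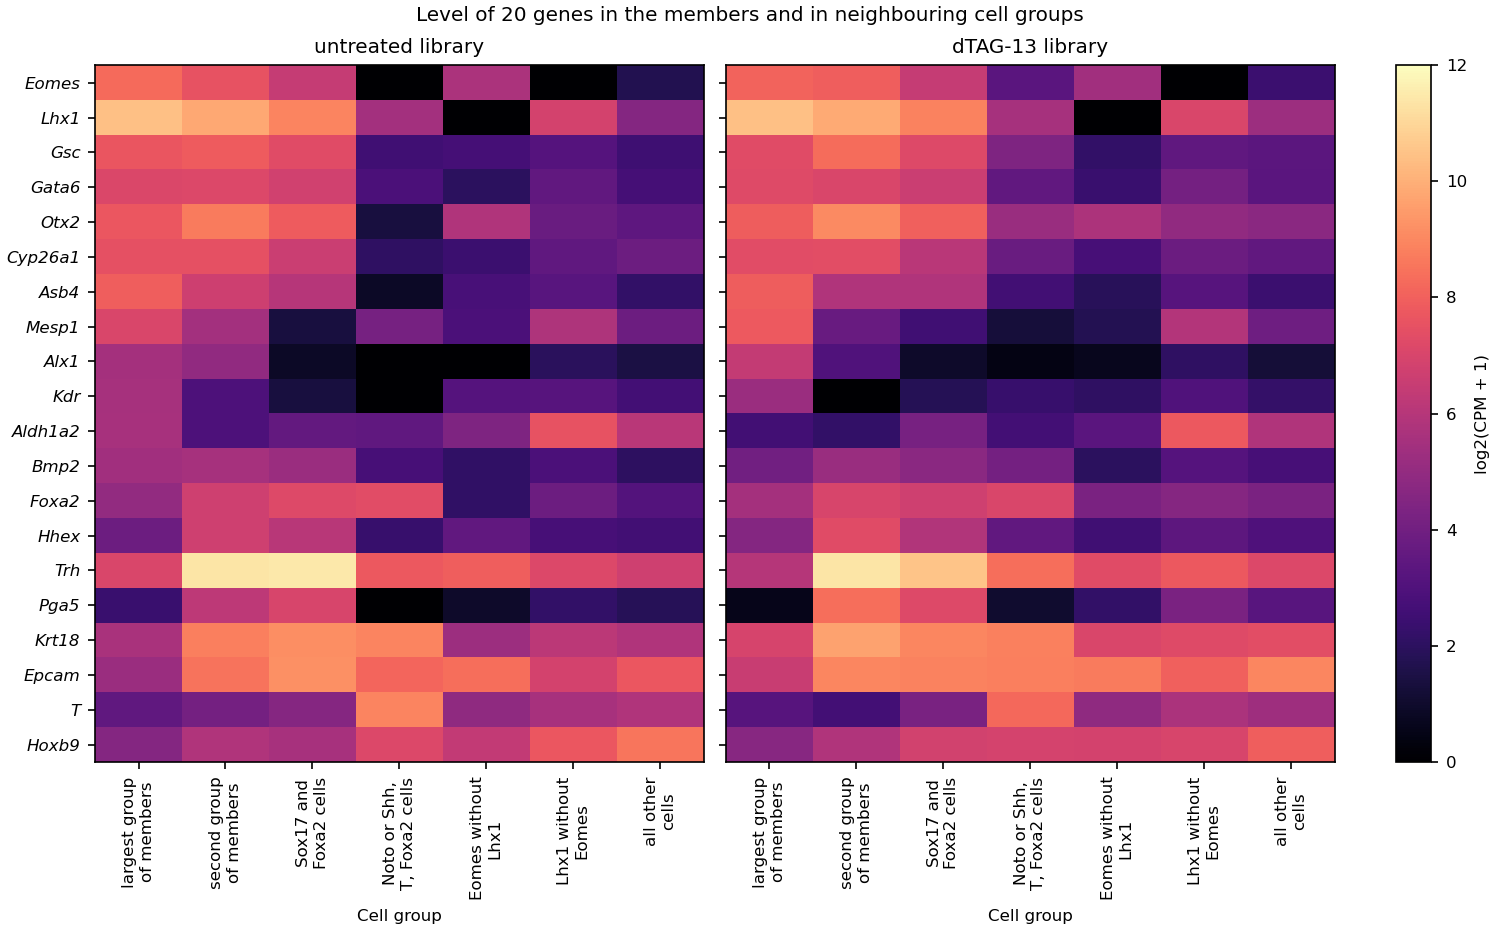
Colour gives log2 of CPM plus 1 for 20 genes (rows) in the 2 groups of members and in 5 groups of other cells (columns), for the untreated library (left) and the dTAG-13 library (right). Gata6, Otx2 and Cyp26a1 are shared by both groups of members and the Sox17 and Foxa2 cells, Mesp1, Alx1 and Kdr are highest in the largest group, and Aldh1a2 and Bmp2 in the largest group are darker in the dTAG-13 library.

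The libraries were first compared within the largest group, 96 untreated and 71 dTAG-13 cells, since the makeup of the members differed between the libraries; this subset was chosen after the data had been seen. Of 7562 genes, 47 were at least 2-fold higher with dTAG-13 with an interval that leaves out 0, which is 0.622%, and 42 were lower, 0.555%. In other cells the same comparison gave 45 (0.582%) and 17 (0.22%) of 7729. As the spread between gastruloid pools is not known, these counts describe 2 libraries and not the treatment. The lineage genes of the group were present in both: Asb4 was at 249 and 235 CPM, Gata6 at 136 and 149 CPM, Otx2 at 211 and 239 CPM and Cyp26a1 at 178 and 162 CPM, with log2 ratios between -0.14 and 0.17.

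The lowest ratio belonged to Aldh1a2, which encodes the enzyme that makes retinoic acid in early mesoderm. It was at 47.2 CPM (39.2 to 56.3, from 123 UMIs) in untreated and 5.13 CPM (2.46 to 9.43, from 10 UMIs) in dTAG-13 members of the group, a log2 ratio of -2.97 (interval -4.30 to -2.27). The UMIs came from 21 of 96 and 5 of 71 cells, and 26.0% of the untreated UMIs from 1 cell. In other cells the log2 ratio was -0.28. The 39 cells of the same cluster that were not members lay the other way, with Aldh1a2 at 55.6 CPM from 24 UMIs in untreated and 107 CPM from 45 UMIs in dTAG-13 cells. Lefty2, a Nodal antagonist and target, was at 92.8 CPM (81.5 to 105) and 23.6 CPM (17.3 to 31.5), log2 -1.93 (-2.46 to -1.52), from 33 and 10 cells. With the rule applied to cells thinned to 10000 UMIs the ratio of Lefty2 was -0.88, under the 2-fold limit, and that of Aldh1a2 was -1.61. The Notch target Nrarp was at 26.9 and 6.16 CPM, log2 -1.96 (-3.14 to -1.23), and -0.99 in other cells. Bmp2 was at 41.4 and 14.9 CPM, log2 -1.42 (-2.12 to -0.87), from 48 and 20 cells. Igfbp4, an IGF-binding protein gene, was the most abundant gene called lower among those named, at 246 CPM in 82 of 96 cells and 94.9 CPM in 49 of 71, log2 -1.37 (-1.62 to -1.14); in other cells its log2 ratio was -0.098. Cells of the cluster that were not members did not share the lower levels of Bmp2, Lefty2 and Igfbp4: Bmp2 was there at 13.9 and 28.4 CPM, Lefty2 at 27.8 and 35.5 CPM and Igfbp4 at 294 and 325 CPM. Nrarp was lower there too, at 37.1 and 9.48 CPM, but these values rest on 19 and 20 cells.

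Others of the 10 lowest were Hoxb2 (log2 -1.85), Hoxb3os (-1.43), the extracellular matrix gene Optc (-1.51), the repressor gene Zfp703 (-1.48, but -0.49 after thinning), the protease gene Ctsc (-1.39) and Hist1h2ap (-1.40). Hist1h2ap has near-identical copies, so its count is uncertain, and it was lower in other cells by a like amount (-1.16). Igfbp4 was not among the 10 lowest of the group but is named by the same rule over all members. Fgf8, a ligand of the streak, was at 135 and 65.2 CPM, log2 -1.04 (-1.36 to -0.75).

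The highest ratio was that of Car4, which encodes a carbonic anhydrase, at 9.97 CPM (6.51 to 14.6) and 48.7 CPM (39.4 to 59.6), log2 2.18 (1.65 to 2.97), in 18 of 96 and 33 of 71 cells. Fgfbp1, which encodes an FGF-binding protein, was at 15.0 and 67.2 CPM, log2 2.10 (1.64 to 2.72). Both were also on the higher side in other cells, at log2 0.84 and 0.88. Muscle genes were next: Myl4, an atrial myosin light chain, was at 6.14 and 23.6 CPM, log2 1.79 (1.10 to 2.86), and Myocd, a coactivator of heart and smooth muscle genes, at 8.44 and 30.3 CPM, log2 1.73 (1.11 to 2.62). In other cells these 2 had log2 ratios of 0.076 and -0.32. Both were below 10 CPM in the untreated library and could enter only through the dTAG-13 library. The other 6 of the 10 highest were Tpd52 (log2 1.63), Usp51 (1.52, but 0.88 after thinning), Gng11 (1.47, but 0.96), Sycp3 (1.44), Sdc4 (1.42, but 0.73 after thinning) and the cell cycle inhibitor gene Cdkn2b (1.39).

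Genes of mesoderm under the 2-fold limit had mixed ratios. Mesp1 was at 133 CPM (119 to 148) and 223 CPM (203 to 245), log2 0.74 (0.54 to 0.95), against 0.062 in other cells, and Alx1 had log2 0.87 (0.53 to 1.24). Kdr was at 46.4 and 36.4 CPM and Pdgfra at 33.8 and 35.4 CPM. The median over 4 measured genes each was -0.07 for the presomitic and -0.03 for the somite list, with 1 gene of each called lower. In other cells the same genes had medians of -0.81 and -0.65. Among genes of the rule, whose counts decide which cells are in, Myl7 was at 216 and 377 CPM, Cer1 at 122 and 169 CPM, Gsc at 204 and 157 CPM and Lhx1 at 1378 and 1387 CPM. The heart and anterior mesoderm list had a median log2 ratio of 0.74 over 5 measured genes, beside 0.01 over all genes. That median is the ratio of Mesp1 itself, so it adds nothing to it. Of the 5, 1 was called higher (Myl4), and it could enter only through the dTAG-13 library. Only 1 gene of the list was also measured in other cells.

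**Figure D4:**
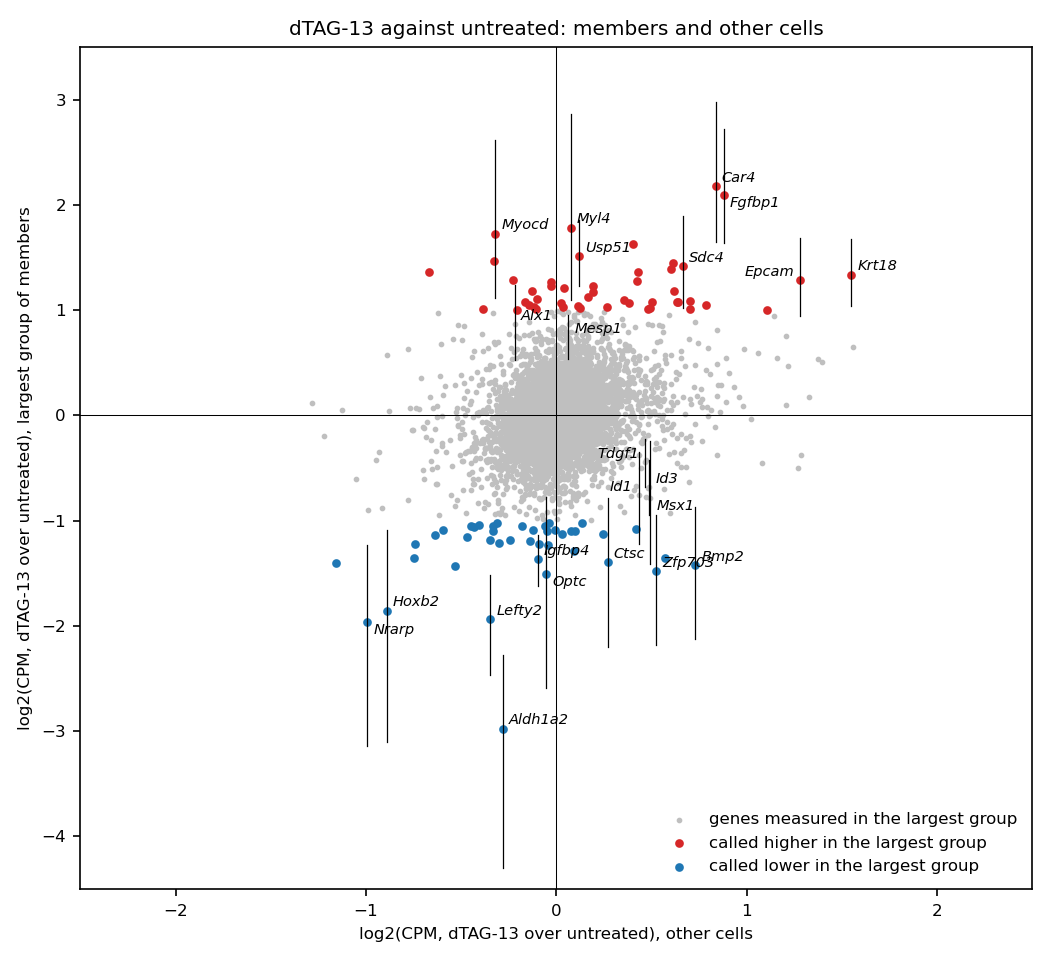
Each point is a gene with a mean of at least 10 CPM in the largest group; the axes give log2 of dTAG-13 over untreated CPM, with 1 CPM added to both, in other cells (x) and in the largest group (y), and vertical bars are 95% counting intervals of the named genes, without the added CPM. The 47 genes called higher are red and the 42 called lower blue; Epcam and Krt18 lie to the upper right, and Id1, Id3, Msx1, Tdgf1, Zfp703 and Bmp2 at the lower right.

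The epithelial list had 2 of 5 measured genes called higher in the largest group and 0 lower, beside 0.622% and 0.555% of all genes, and 12 of 16 called higher in other cells. Epcam was at 36.8 and 91.3 CPM, log2 1.29 (0.94 to 1.68), and the keratin gene Krt18 at 48.7 and 125 CPM, log2 1.34 (1.04 to 1.68). The ratios in other cells were 1.28 and 1.55. Epcam is abundant in the rest of both libraries, where it was at 207 and 505 CPM, and the part of free RNA in the group's counts was not tested. Of the mesenchymal list 1 of 12 was called lower, the cadherin gene Cdh11 (log2 -1.15), and Cdh2, the N-cadherin gene, was at 184 and 176 CPM. Zeb1, the relative of Zeb2, was at 42.2 and 42.1 CPM, and the Zeb2 transcript at 46.8 and 59.0 CPM.

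The BMP list had medians of opposite sign in the largest group and in other cells. In the largest group 1 of 9 measured genes was called lower (Bmp2) and 0 higher. Over the 7 genes measured in both, the median log2 ratio was -0.66 in the largest group and 0.35 in other cells. The BMP target Id1 was at 57.2 and 33.3 CPM in the group, log2 -0.76 (-1.22 to -0.35), and 0.43 in other cells. Id3 was at 151 and 93.9 CPM, log2 -0.68 (-0.94 to -0.43), against 0.49, and Msx1 at 33.4 and 19 CPM, log2 -0.78 (-1.41 to -0.24), against 0.49. None of the last 3 passed the 2-fold limit. Of the Nodal list 1 of 13 was called lower (Lefty2), and Tdgf1 was at 173 and 127 CPM, log2 -0.44 (-0.68 to -0.22), against 0.47 in other cells. Of the WNT list 2 of 12 were called lower, the secreted inhibitor gene Frzb (log2 -1.05) and Rspo3 (-1.22).

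Over all members, 62 of 7635 genes were at least 2-fold higher with dTAG-13 (0.812%) and 25 lower (0.327%). The cluster led by Dppa5a and Fabp3 had 11 dTAG-13 members, with a median of 108240 UMIs. They held 28.3% of the UMIs of all dTAG-13 members, and 3 of them were marked as doublets. Of all 195 cells of that cluster 142 were marked, beside 6.83% of all dTAG-13 cells that were not members. Whether the 11 members hold more than 1 cell each was not tested. Without these 11 members 32 genes were higher and 19 lower, and only 23 of the 62 and 9 of the 25 were still called. The 10 highest over all members included the epithelial genes Cldn3 (log2 3.02), Rab25 (2.40), Esrp1 (2.23) and Cldn7 (1.86). The others were the surface ectoderm gene Sfn (2.52), Fgf17 (2.36), Irs4 (2.34), Pga5 (2.03), Tcea3 (1.79) and Fgfbp1 (1.73). With the rule applied to thinned cells, Sfn (0.89), Esrp1 (0.81), Rab25 (0.66) and Tcea3 (0.54) were under 2-fold and Fgf17 changed sign (-0.93). Of the same 10 genes, Fgf17 (0.87) and Tcea3 (0.42) were under 2-fold without the 11 members. In the largest group Sfn was at 0.767 and 1.03 CPM, Tcea3 at 4.99 and 5.64 CPM and Pga5 at 4.22 and 0.513 CPM, all under the 10 CPM needed to enter, while Fgfbp1 had a log2 ratio of 2.10. Of the Hox and Cdx list, 5 of 8 measured were called higher over all members, with a median of 1.09, but 0 of 5 in the largest group, where 2 were called lower (Hoxb2 and Hoxb4) and the median was -0.45. The 10 lowest over all members were Optc, Nrarp, Hist1h2ap, Bmp2, Lefty2 and Igfbp4 (log2 -1.84, -1.51, -1.32, -1.29, -1.24 and -1.55), along with Cdh11 (-1.39), the RNA-editing family gene Apobec2 (-1.39), the myelin protein gene Pmp22 (-1.28) and Lmo1 (-1.27). After thinning, Apobec2 (-0.84), Nrarp (-0.70), Lefty2 (-0.23) and Bmp2 (-0.17) were under 2-fold. In the largest group Pmp22 had log2 -1.18, Apobec2 -1.0 and Lmo1 -0.66.

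The second group had 13 untreated and 26 dTAG-13 cells, and 126 of 7602 genes were called higher with dTAG-13 (1.66%) and 133 lower (1.75%). With so few cells a single cell can set a gene's value. Of the genes described above, Trh was at 2636 and 2677 CPM there, Otx2 at 415 and 538 CPM, Dkk1 at 366 and 352 CPM and Gata6 at 141 and 133 CPM. Krt18 was at 441 and 820.5 CPM and Epcam at 359.7 and 497 CPM.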

How the data were processed

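Droplet 3′ gene expression was measured in 1 untreated and 1 dTAG-13 library. The authors deposited whole-number UMI counts per gene and barcode, with 158002807 and 176677276 UMIs in total; Cell Ranger 6.1.2 and mm10 are named in the submitters' processing notes. Of 15149 deposited barcodes, 13826 had at least 1000 genes and at most 10% mitochondrial UMIs. Both libraries share 14 deposited barcodes. Of 32285 gene identifiers, 32158 matched GENCODE M21.

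Counts were summed per library and group and given as CPM with exact Poisson intervals; shares have exact Clopper-Pearson intervals. Ratios carry 1 CPM on both sides, while intervals of ratios are exact conditional intervals of the 2 counts without it. A gene was called at 2-fold or more with a mean of at least 10 CPM, in both libraries for members against other cells, and with an interval leaving out 0 for dTAG-13 against untreated. All intervals are at 95% and cover counting error only. PCR and capture add to it, and cells are not replicates. Clustering used scanpy 1.11.5 and leidenalg 0.10.2 (2000 variable genes without the 7 of the rule, 30 components, 15 neighbours, resolution 1.0) under Python 3.11.15 with scipy 1.17.1. No barcode was removed as a doublet. Only the 2 comparisons of summed counts were tested on simulated data. Those were Poisson counts without spread between cells or libraries. The rule, clustering, doublet marking and thinning were not tested in this way.

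Named genes were the 7 of the rule and Gata6, the 15 highest and 10 lowest against other cells, the 10 highest and 10 lowest for dTAG-13, and up to 4 per gene list; predicted genes and RIKEN clones are counted but not named. Some named genes are not reported here. Genes singled out beyond these were chosen after their values were seen. The members and lists were chosen with earlier results of these data known.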

Additional observations from a re-analysis of the deposited data

Results flagged for a closer look

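For 5 genes the log2 ratio of dTAG-13 over untreated had opposite signs in the largest group and in other cells, with both counting intervals leaving out 0. Id1 was at -0.76 in the largest group and 0.43 in other cells. Id3 was at -0.68 and 0.49, and Msx1 at -0.78 and 0.49. Tdgf1 was at -0.44 and 0.47, and Zfp703 at -1.48 and 0.52. The difference between the groups of cells was not tested, as each library is 1 sample.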

How the results depend on the processing

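The share of members in the dTAG-13 library was 1.43% with 2 or more UMIs of Eomes and Lhx1 and 1.38% with Sox17 at 0. Against other cells, 148 genes were lower when the rule was applied to cells thinned to 10000 UMIs, 57 with 5 CPM added, and 207 in the largest cluster's members alone; without a filter on the mean, 292 were higher and 231 lower. For dTAG-13 over all members, 73 genes were lower after thinning and 42 in the largest cluster's members; 34 were higher and 12 lower with 5 CPM added, 41 higher by the mean over cells, 323 higher and 126 lower without the filter, and 32 higher without the cluster led by Dppa5a and Fabp3. For the largest group, 114 were higher and 109 lower after thinning, and 25 of the 47 higher and 16 of the 42 lower genes were still called; over all members 17 of 62 and 14 of 25 were. The largest group had 18 higher and 19 lower with 5 CPM added, and 174 and 136 without the filter. Over all members, Fgf17 changed sign to -0.93 after thinning, and Pga5 to -0.042 with Sox17 at 0 and to -1.79 in the largest cluster's members. The cause was not tested. Of single-gene values, 69 moved and 206 did not against other cells, 24 moved, 3 changed sign and 213 did neither over all members, and 6 moved and 194 did not in the largest group. The comparisons restricted to the largest cluster, those without the cluster led by Dppa5a and Fabp3, and the other cluster resolutions were chosen after seeing the data. No paired analysis was possible because there is 1 library per group.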
